A study of Mus musculus with 8 samples.

Results

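Npas4 and the genes for its dimerisation partners, Arnt and Arnt2, were followed in neurons cultured from mouse cortex, by sequencing of their RNA. The 3 genes were listed by symbol and looked up in a table of FPKM values (fragments per kilobase of transcript, scaled to the mapped fragments of the library). They are 3 of 23826 genes in that table. Npas4 and Arnt2 each have 1 RefSeq entry and Arnt has 2, whose values were summed. All 3 genes passed the filter on low values and were tested.

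Cortex was taken at embryonic day 16.5 and its neurons were cultured for 6 days, with 1 µM tetrodotoxin, a sodium channel blocker that silences firing, present overnight in every culture. For 4 h before harvest, some cultures also received 55 mM KCl, which depolarises the membrane, and the rest stayed silenced. Rem2, the gene of a calcium channel inhibitor from the RGK group of small GTPases, was floxed in all 8 libraries (genotype label Rem2 flx/flx). The 4 groups, taken from the titles, were silenced Control, Control with KCl, silenced Rem2 KO and Rem2 KO with KCl, each with 2 libraries described as biological replicates. How Cre was delivered and which exons it removes are not stated in the labels, so the share of recombined cells is not known. Libraries were made from 500 ng of total RNA. Values in such bulk RNA cannot tell fewer cells of a type apart from less RNA per cell.

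NPAS4 is a transcription factor of the bHLH-PAS family, whose members bind DNA as pairs. Its gene is switched on by membrane depolarisation and calcium entry in neurons, and it is known for controlling inhibitory synapses and Bdnf. ARNT and ARNT2 are shared partners of part of the family, NPAS4 included. ARNT also pairs with the hypoxia-inducible factors and with the aryl hydrocarbon receptor, while ARNT2 is abundant in brain.

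In the mouse genome (build GRCm38, GENCODE vM21 annotation), Npas4 lies on chr19:4984355-4990316 on the minus strand. Arnt lies on chr3:95434388-95497240 on the plus strand, and Arnt2 on chr7:84246278-84410176 on the minus strand. The windows from 250 bases before to 50 after each RefSeq start (build GRCm38.p6) were searched for the cAMP response element TGACGTCA, for its first 7 bases TGACGTC, both on either strand, and for the TATA box core TATATAA on the gene's strand. The full element contains the 7-base form. Short stretches of the windows around the matches are shown, since Npas4 is the gene of the 3 that KCl raised many-fold. The first is chr19:4990129-4990158, minus strand, 187 to 158 bases before the start, the second chr19:4989982-4990011, minus strand, 40 to 11 bases before it, and the third chr3:95434140-95434169, plus strand, 250 to 221 bases before it. Capitals mark the matches.
Npas4, CRE-type stretch: ccgttcGACGTCAcgggaTGACGTCggaag
Npas4, TATA-type stretch: cctgtcaggagcTATATAAggcggatcgag
Arnt, CRE stretch: ttgcatttcacTGACGTCAatttggttatg
The Npas4 stretch held the 7-base form once on each strand and no full element. The Arnt stretch held the full element. Of 32851 such windows, 1.79% held the full element, 3.21% held the 7-base form and 2.2% held the TATA core. None of the 3 was found in the Arnt2 window. The GENCODE annotation starts Npas4 upstream of the RefSeq start, so both Npas4 stretches lie inside its first exon in that annotation. A match is a description of these letters, not evidence of a bound site.

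The 2 entries of Arnt differ by exon 5 of 22, a coding exon of 45 bases or 15 codons at chr3:95466793-95466837. The exon is shown in capitals with 12 bases of the neighbouring exons on each side, because it is what tells the entries apart within the coding sequence.
Arnt exon 5: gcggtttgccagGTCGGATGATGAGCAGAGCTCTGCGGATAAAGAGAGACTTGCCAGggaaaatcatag
The entries also differ in their last exon, which has 264 bases in the entry with exon 5 and 1937 in the entry without it.

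To check the labels, Rem2 was looked up in every library. It was at 6.29 and 2.54 FPKM in silenced Control, 2.13 and 1.70 in silenced Rem2 KO, 22.5 and 21.4 in Control with KCl, and 11.7 and 12.4 in Rem2 KO with KCl. The Rem2 KO libraries were lower in both states and the ranges did not overlap. The difference was -0.80 (SE 0.33) on the log2(FPKM + 1) scale when silenced and -0.82 (SE 0.33) when depolarised, and neither passed the limma test (adjusted p = 1 in both). Rem2 thus remained measurable in the Rem2 KO libraries, and since the deleted exons are not stated, its summed level need not show the full extent of the deletion.

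The libraries numbered 1 and 2 stood apart across all genes. The first principal component held 49.0% of the variance and separated the numbers, while the second held 32.5% and separated KCl from silenced libraries. The numbers 1 had a rough depth of 19.3 to 21.4 M fragments and the numbers 2 one of 37.6 to 44.9 M, read from the smallest steps between low FPKM values. The summed FPKM of 5 proliferating progenitor markers was 72.6 to 84.5 in the numbers 1 and 91.1 to 122 in the numbers 2. These markers went both ways. Mki67 and Top2a were higher in the number 2 of every group, and Hes5 and Pax6 were lower. Eomes was lower there in every group but silenced Control. Mki67 was at 5.77 to 7.03 in the numbers 1 and 18.9 to 28.0 in the numbers 2, and Hes5 at 42.4 to 49.8 and 26.2 to 38.5. The sum of 5 microglial markers, of which Tmem119 was at 0 in some libraries, was 3.86 to 5.05 in the numbers 1 and 10.9 to 15.5 in the numbers 2. The cultures carried the 5 neuronal markers at a sum of 1181 to 1672 FPKM, but also 5 of the 6 listed markers of astrocytes and radial glia at 1283 to 1838 and 6 oligodendrocyte lineage markers at 293 to 470. Fabp7 alone was at 1045 to 1476 FPKM, most of the sum for astrocytes and radial glia. Tubb3 made up most of the neuronal sum, at 978 to 1172 FPKM when silenced and 647 to 728 with KCl. Snap25, another neuronal marker, went the other way, from 91.3 to 112 FPKM when silenced to 177 to 199 with KCl. The sum of 6 interneuron markers was 290 to 395 FPKM when silenced and 1241 to 1629 with KCl, and that of 5 excitatory neuron markers 277 to 362 and 464 to 611. Sst alone went from 145 to 220 FPKM when silenced to 904 to 1269 with KCl. The silenced and KCl ranges of Dlx1 and Dlx2 overlapped. By limma 3 of the 6 interneuron markers rose in each genotype, and of the 5 excitatory ones 1 rose in Control and 0 in Rem2 KO. Over all tested genes 5.18% were called higher in Control and 5.73% in Rem2 KO. With the library number as a block, 5 interneuron markers rose in Control and 4 in Rem2 KO. Of the excitatory ones 4 rose in each, where 14.4% and 16.1% of all tested genes were called higher. With TMM-type scaling 3 interneuron markers rose in each genotype, and 3 and 2 excitatory ones, where the shares were 9.42% and 9.55%. These sums thus do not give the course of each marker. The part of these differences between libraries in the levels given below was not tested.

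Npas4 was a low gene in silenced neurons and one of the high genes after 4 h of KCl, in both genotypes. Its level was 3.23 and 1.54 FPKM in silenced Control (2.38 ± 1.20, SD, n = 2) and 2.27 and 1.52 in the silenced Rem2 KO pair (1.90 ± 0.53). The KCl libraries stood at 75.0 and 61.9 FPKM for Control (68.4 ± 9.25) and at 82.3 and 70.9 for Rem2 KO (76.6 ± 8.06). Every KCl library was far above every silenced library, and in each of the 4 groups the library numbered 1 was the higher. Silenced libraries carried Npas4 above the level of only 6.93% to 19.9% of the 13085 tested genes, and KCl libraries above 88.8% to 91.9%. At the rough depths above, the silenced values rest on about 154 to 216 fragments, a counting error of 6.80% to 8.06%, and the KCl values on 5569 to 9646.

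**Figure D1:**
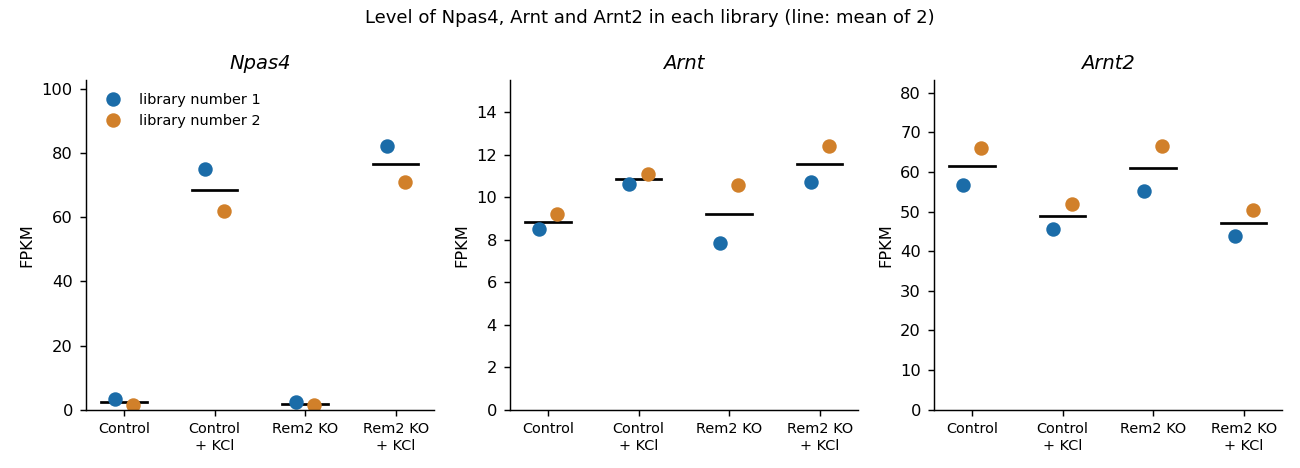
FPKM of Npas4, Arnt and Arnt2 (y axes, linear and from 0) in the 8 libraries, by group on the x axis. Points are libraries, coloured by library number, and lines are means of 2. The Npas4 means go from 2.38 to 68.4 in Control and from 1.90 to 76.6 in Rem2 KO, while Arnt stays between 7.84 and 12.4 and Arnt2 between 43.9 and 66.6.

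Npas4 rose by 4.40 (SE 0.27) on the log2(FPKM + 1) scale with KCl in Control (limma, adjusted p = 0.00221) and by 4.75 (SE 0.27) in Rem2 KO (adjusted p = 0.00138). These are 21.1-fold and 26.9-fold changes of FPKM + 1, a scale that understates the change of a gene with a low start. The plain ratio of mean FPKM was 28.7 in Control and 40.4 in Rem2 KO. Within same-numbered libraries the ratio was 23.2 and 40.2 in Control and 36.2 and 46.6 in Rem2 KO, so the direction held in 4 of 4 pairs. Fitted with the library number as a block, the limma adjusted p was 2.13e-05 in Control and 1.18e-05 in Rem2 KO. That fit called 14.4% and 16.1% of all tested genes higher. Without the block Npas4 was the only one of the 3 genes to pass in either KCl comparison. The background was 17.4% of tested genes called in Control and 16% in Rem2 KO. Of all tested genes 5.18% and 5.73% were called higher, and 12.2% and 10.3% lower. Its log2 change was at position 13 of 13085 in Control and 9 in Rem2 KO, and at position 3 of 12674 in both among genes detected in all 8 libraries.

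**Figure D2:**
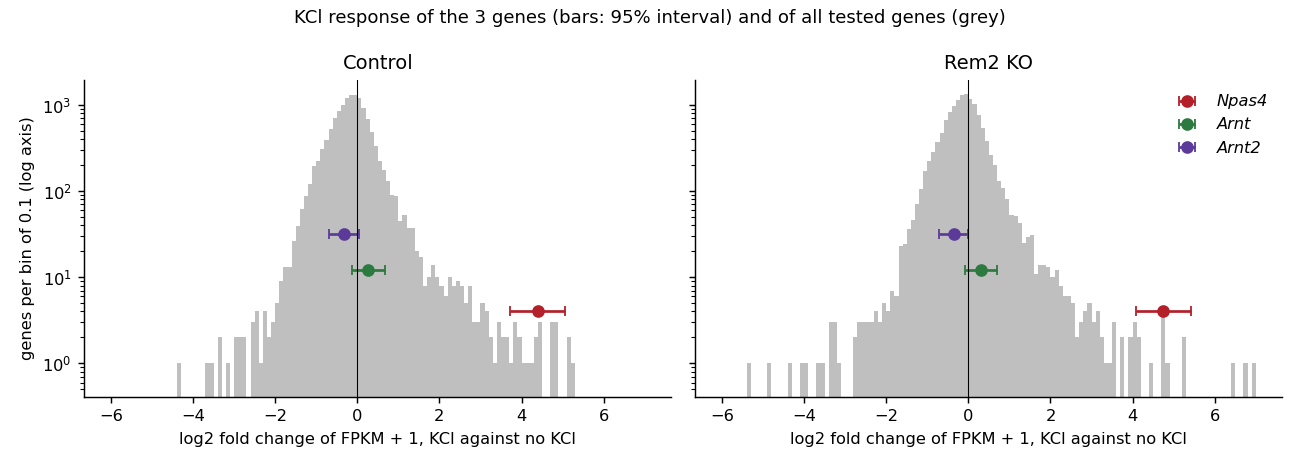
The x axes give the log2 fold change of FPKM + 1 with KCl in Control (left) and Rem2 KO (right), and grey bars the number of the 13085 tested genes per bin on a log axis. Coloured points are the 3 genes with 95% intervals, set at arbitrary heights. Npas4 lies at 4.40 and 4.75, in the far right tail, while Arnt and Arnt2 lie on either side of 0 within the bulk of genes.

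No genotype difference of Npas4 passed the test in either state, and the intervals were wide. The difference of Rem2 KO from Control was -0.19 when silenced (95% interval -0.86 to 0.48 on the log2(FPKM + 1) scale) and 0.16 when depolarised (-0.51 to 0.83), with an adjusted p of 1 in both limma tests. Depolarised Rem2 KO libraries were 1.10 and 1.15 times their same-numbered Control libraries, and silenced ones 0.704 and 0.989 times. The Npas4 ranges of the genotypes overlapped in both states. The KCl response was 0.35 larger in Rem2 KO (SE 0.39, 95% interval -0.60 to 1.30), and did not pass in limma. With the library number as a block the 95% intervals were narrower. They were -0.50 to 0.12 when silenced, -0.15 to 0.48 when depolarised and -0.09 to 0.80 for the difference of responses, and none passed in limma. An effect of Rem2 loss on Npas4 within the intervals of either fit was not detectable with 2 libraries a group.

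Neither partner gene passed the same test, and their KCl differences were small and of opposite sign. Arnt was at 8.49 and 9.20 FPKM in silenced Control and 10.6 and 11.1 in Control with KCl. Silenced Rem2 KO had 7.84 and 10.5 FPKM, and its KCl pair 10.7 and 12.4. All 4 KCl libraries lay above all 4 silenced ones, by a narrow margin between 10.5 and 10.6 FPKM. Same-numbered libraries differed by 25.1% and 20.7% in Control and 36.4% and 17.7% in Rem2 KO. The log2(FPKM + 1) difference was 0.27 in Control (SE 0.16, limma adjusted p = 0.318) and 0.31 in Rem2 KO (SE 0.16, adjusted p = 0.256), beside medians over all tested genes of -0.14 and -0.12.

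The Arnt call depends on how libraries are scaled. TMM-type scaling moves the median of all genes by 0.14 in Control and 0.12 in Rem2 KO, to near 0. With it the Arnt difference was 0.42 (adjusted p = 0.0293) and 0.44 (adjusted p = 0.0259), and with quantile normalization it was 0.46 (adjusted p = 0.0259) and 0.47 (adjusted p = 0.0252). Of all tested genes 9.42% and 9.55% were called higher with TMM-type scaling, and 7.79% and 7.78% with quantile normalization. With the library number as a block and no rescaling, the limma adjusted p was 0.0622 in Control and 0.0408 in Rem2 KO, where 14.4% and 16.1% of tested genes were called higher.

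Arnt2 was the most abundant of the 3 genes in silenced neurons. It was at 56.7 and 66.1 FPKM in silenced Control and 45.7 and 52.0 in Control with KCl. Silenced Rem2 KO had 55.2 and 66.6 FPKM, and its KCl pair 43.9 and 50.5. The 4 KCl libraries all lay below the 4 silenced ones, and in every group the library numbered 2 was the higher, as it was for Arnt. Same-numbered KCl libraries were lower by 19.4% and 21.3% in Control and by 20.6% and 24.2% in Rem2 KO. The log2(FPKM + 1) difference was -0.32 (SE 0.15, limma adjusted p = 0.195) in Control and -0.36 (SE 0.15, adjusted p = 0.161) in Rem2 KO. With the library number as a block, Arnt2 passed in both (adjusted p = 0.00555 and 0.00381), where 34.3% and 31.4% of all tested genes were called lower. TMM-type scaling made the differences -0.16 and -0.22.

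No genotype difference of either partner passed. Arnt in Rem2 KO differed from Control by 0.04 when silenced (95% interval -0.35 to 0.43) and by 0.08 when depolarised (-0.31 to 0.47) on the log2(FPKM + 1) scale. Arnt2 differed by -0.01 (-0.37 to 0.35) and by -0.05 (-0.41 to 0.31). The KCl responses differed between genotypes by 0.04 (-0.52 to 0.60) for Arnt and by -0.04 (-0.55 to 0.47) for Arnt2. In the 3 genotype comparisons 0 of the 3 genes passed in limma, and 0 had an unadjusted p under 0.05, with or without the library number as a block. The background was small there too, at 0.0229% of tested genes when silenced, 0.0459% when depolarised and 0.00764% for the difference of responses. With the block it was 0.0306%, 0.0764% and 0.0688%.

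Since FPKM is scaled for length, the partners can be set against each other within a library. The ratio of Arnt2 to Arnt FPKM was 6.68 and 7.19 in silenced Control and 7.04 and 6.31 in silenced Rem2 KO. It was 4.30 and 4.69 in Control with KCl and 4.10 and 4.07 in Rem2 KO with KCl. No KCl library reached the lowest silenced one. The mean log2 ratio was 2.77 ± 0.08 (SD, n = 4) when silenced and 2.10 ± 0.09 (n = 4) with KCl, a difference of -0.67 with an exact two-sided permutation p = 0.0286, the smallest that 70 divisions allow. Permuting only within library number and genotype gave an exact p = 0.125, the smallest that its 16 divisions allow. A scaling of whole libraries cancels in this ratio. With only the higher Arnt entry in place of the sum, the difference was -0.70 with an exact p = 0.200.

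The sum of Arnt and Arnt2 was 63.1 to 77.1 FPKM when silenced and 54.6 to 63.1 with KCl. Arnt made up 12.2% to 13.7% of that sum when silenced and 17.6% to 19.7% with KCl. Npas4 was at 0.0197 to 0.0495 of the partners' summed FPKM when silenced and at 0.981 to 1.51 with KCl. Npas4 transcripts thus went from a small fraction of the partner transcripts to about their level, with the change almost all on the side of Npas4. These are RNA levels, and protein was not measured.

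The division of Arnt between its entries varied far more than the Arnt sum. The entry with exon 5 was at 6.39 and 9.20 FPKM in silenced Control, 4.58 and 6.99 in Control with KCl, 1.90 and 6.97 in silenced Rem2 KO, and 7.64 and 8.38 in Rem2 KO with KCl. The entry without it was at 2.10 FPKM and listed at 0 in silenced Control, 6.05 and 4.11 in Control with KCl, 5.94 and 3.57 in silenced Rem2 KO, and 3.06 and 4.03 in Rem2 KO with KCl. Libraries of 1 group disagreed as much as groups did, with the share in the entry with exon 5 going from 24.3% to 100%. In the depolarised Rem2 KO pair that share was 71.4% and 67.5%, and in the silenced pair 24.3% and 66.1%. Neither entry passed in limma when entries were tested separately, and the sign of the KCl difference differed between entries. The entry with exon 5 differed by -0.38 in Control and 0.90 in Rem2 KO on the log2(FPKM + 1) scale, and the entry without it by 1.77 and -0.32.

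**Figure D3:**
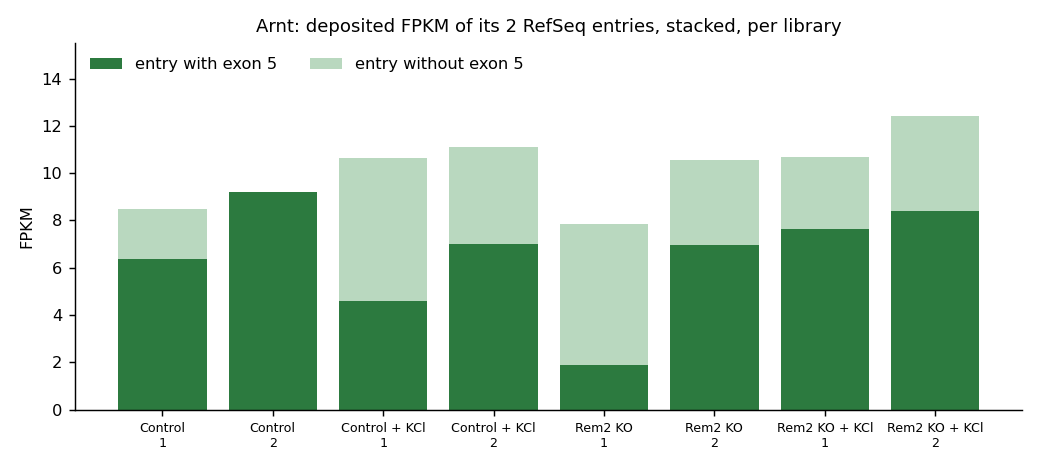
Stacked bars give the deposited FPKM of the Arnt entry with exon 5 (dark) and without it (light) in each library, from 0. Bar tops stay between 7.84 and 12.4, while the dark share runs from 24.3% to 100%.

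Among 16 bHLH-PAS genes, comprising the 3 genes and 13 relatives, Arnt2 had the highest FPKM in silenced neurons of both genotypes and Npas4 was at position 9. Silenced Npas4 overlapped in range with its neighbours Epas1 and Ahr in Control, and with Ahr in Rem2 KO. With KCl Npas4 was the highest and Arnt2 the second, at 68.4 against 48.9 mean FPKM in Control and 76.6 against 47.2 in Rem2 KO, and their ranges did not overlap. Arnt was at position 5 in all 4 groups, and its range overlapped that of the circadian gene Arntl above it in each. Hif1a, the hypoxia-inducible partner of ARNT, was between 16.0 and 27.7 FPKM.

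**Figure D4:**
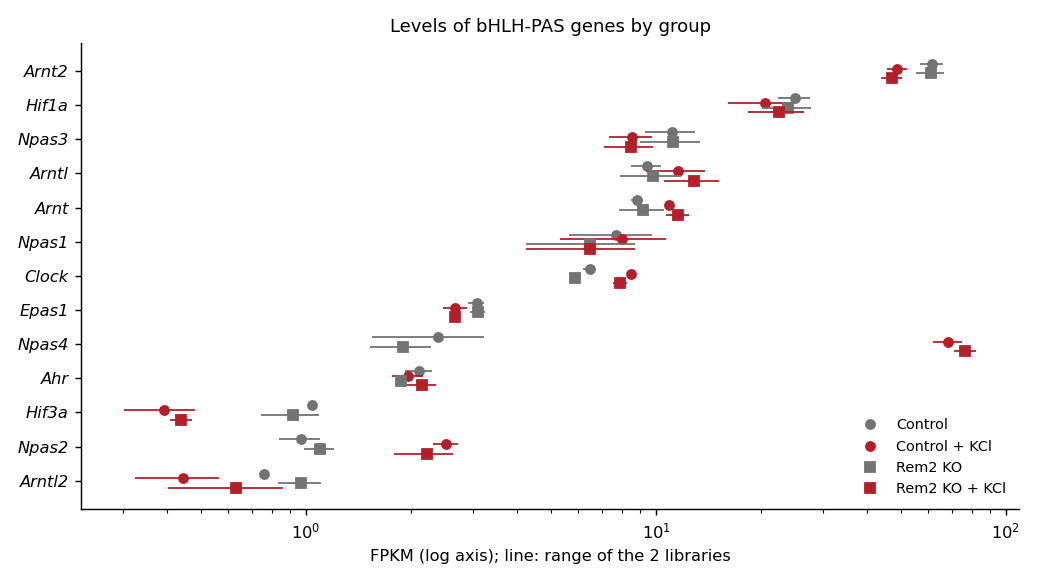
Mean FPKM (x axis, log scale) of Npas4, Arnt, Arnt2 and 10 relatives, with lines for the range of the 2 libraries of a group. Circles are Control, squares Rem2 KO, grey silenced and red with KCl, and the 3 relatives that are at 0 or near 0 are left out. Npas4 goes from position 9 to the top, and the shifts of the other genes are small beside it.

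Of the 13 relatives 9 were tested. In Control 1 rose and 0 fell with KCl, and in Rem2 KO 0 rose and 0 fell by limma, with 2 at an unadjusted p under 0.05. Over all tested genes 5.18% were called higher and 12.2% lower in Control, and 5.73% and 10.3% in Rem2 KO. The 9 relatives had a median log2(FPKM + 1) difference of -0.07 in Control and -0.0016 in Rem2 KO, beside -0.14 and -0.12 over all tested genes. With TMM-type scaling the median of the 9 was 0.04 and 0.12. Npas2, a circadian partner of ARNTL, went from 1.09 and 0.84 FPKM to 2.31 and 2.72 in Control and from 0.99 and 1.20 to 1.78 and 2.64 in Rem2 KO. It rose by 0.84 in Control (adjusted p = 0.0402), and its difference in Rem2 KO was 0.60 (adjusted p = 0.0991). The Control count became 0 without any 1 of the 8 libraries. With the library number as a block, 2 rose and 3 fell in Control and 3 rose and 1 fell in Rem2 KO. These counts stand beside 14.4% of all tested genes called higher and 34.3% lower in Control under the block, and 16.1% and 31.4% in Rem2 KO. With quantile normalization and with TMM-type scaling 2 rose and 0 fell in each genotype. Called higher over all tested genes were 7.79% in Control and 7.78% in Rem2 KO with quantile normalization. With TMM-type scaling these shares were 9.42% and 9.55%. By limma Npas2 passed in Rem2 KO with quantile normalization (adjusted p = 0.0378) and with the block (adjusted p = 0.0175).

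Of 10 genes reported as NPAS4 targets in mouse neurons, 9 were in the table and 8 were tested. Syt10 was below 1 FPKM in every library and was not tested. It was at 0.675 to 0.802 FPKM when silenced and at 0.541 to 0.669 with KCl. Bdnf and Kcna1 reached 1 FPKM only with KCl, so the filter let them in through their KCl level. With KCl 6 of the 8 tested genes rose and 0 fell in each genotype, and the 2 others did not pass. The share of all tested genes called higher was 5.18% in Control and 5.73% in Rem2 KO. Fitting the library number as a block, 7 rose in each, where 14.4% and 16.1% of all tested genes were called higher. The median log2(FPKM + 1) difference of the 8 was 1.72 in Control and 1.96 in Rem2 KO. Bdnf, which encodes a neurotrophin, went from 0.417 and 0.404 FPKM to 24.5 and 26.9 in Control and from 0.585 and 0.540 to 27.0 and 23.3 in Rem2 KO. It rose by 4.24 (SE 0.13) and 4.06 (SE 0.13) on that scale, and its silenced and KCl libraries were far apart. Nptx2, which encodes a pentraxin that gathers glutamate receptors at synapses, rose by 3.06 and 3.26. Kcna1, a voltage-gated potassium channel gene, rose by 2.08 and 1.99, and Csrnp1, a transcription factor gene, by 2.05 and 2.00. Plk2, a kinase gene, was already at 54.5 FPKM or more when silenced, and its differences of 0.33 and 0.67 did not pass. With the block it passed in both (limma adjusted p = 0.0265 and 0.00188). The Control count was 3 without either silenced Control library and 2 without either KCl one, and the Rem2 KO count was 2 without its KCl library 1. These libraries hold no neurons lacking Npas4, so they do not show which of these genes need it.

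**Figure D5:**
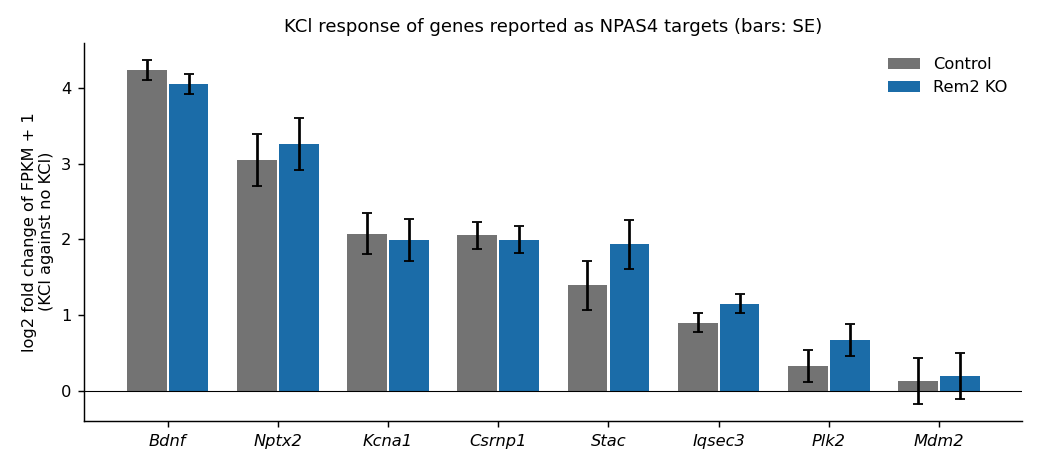
Bars give the log2 fold change of FPKM + 1 with KCl for the 8 tested genes reported as NPAS4 targets, in Control (grey) and Rem2 KO (blue), with standard errors. Bdnf stands at 4.24 and 4.06, and Plk2 and Mdm2 do not pass the test in either genotype.

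Npas4 was also set beside 15 other transcription factor genes that activity induces. In level it was at position 11 of 16 when silenced, and with KCl at position 6 in Control and 5 in Rem2 KO. In log2 change it was at position 2 in both genotypes, after Fosb, whose differences were 4.74 and 4.80. Of the 15, 11 rose in Control and 12 in Rem2 KO, 0 fell, and the medians were 2.24 and 2.58. Among them Egr4 was at 1.43 and 0.213 FPKM in silenced Control and 0.850 and 0.218 in silenced Rem2 KO. The filter thus let Egr4 in through its KCl level. The share of all tested genes called higher was 5.18% and 5.73%. Under the block 14 rose in each genotype, where 14.4% of all tested genes were called higher in Control and 16.1% in Rem2 KO. Fos rose by 4.18 and 4.40, Nr4a3 by 3.88 and 4.05, and Nr4a1 by 3.64 and 3.98. The Control count was 4 without KCl library 1 and 7 without KCl library 2, and the Rem2 KO count was 6 without KCl library 1.

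Upstream of Npas4, 11 genes known to regulate its transcription were all tested, and 2 rose and 2 fell in each genotype. Of all tested genes 5.18% were called higher and 12.2% lower in Control, and 5.73% and 10.3% in Rem2 KO. Under the block 3 rose and 3 fell in Control, and 3 rose and 2 fell in Rem2 KO. The block called 14.4% and 16.1% of all tested genes higher, and 34.3% and 31.4% lower. Hdac5, a class IIa deacetylase that represses Npas4 from the nucleus, rose by 1.03 in Control and 1.24 in Rem2 KO, from 43.0 to 52.7 FPKM when silenced to 105 to 115 with KCl. Mef2d, a calcium-responsive transcription factor gene, rose by 0.82 and 0.79. Its relative Mef2a fell by 0.61 and 0.59. Cacna1d, which encodes an L-type calcium channel, fell by 1.12 and 1.14. The list medians were 0.13 and -0.01, and 0.29 and 0.13 with TMM-type scaling. Without 1 Control library the Control count of 4 was 0, or 1 without silenced library 2, and without silenced library 2 or KCl library 1 the Rem2 KO count was 1.

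Targets of the other ARNT dimers moved in both directions. Of 14 targets of the hypoxia-inducible factors, 12 were tested, of which 3 rose and 2 fell in Control and 4 rose and 2 fell in Rem2 KO, with medians of 0.30 and 0.49. All tested genes were called higher at 5.18% and 5.73%, and lower at 12.2% and 10.3%. Ndrg1 fell by 1.73 and 1.71, and Pdk1, a pyruvate dehydrogenase kinase gene, fell by 0.78 and 0.88. In Control the Pdk1 call was lost with quantile normalization (adjusted p = 0.0758). Slc2a1, the glucose transporter gene GLUT1, rose by 0.94 and 0.87. Adm, a vasodilator peptide gene, rose by 0.88 in Rem2 KO (adjusted p = 0.0426), and its Control difference was 0.61 (adjusted p = 0.108, and 0.0268 with the library number as a block). Adm was at 0.492 to 0.987 FPKM when silenced, so the filter let it in through its KCl level. With the library number as a block, 6 rose and 4 fell in Control and 8 rose and 2 fell in Rem2 KO, where 14.4% and 16.1% of all tested genes were called higher and 34.3% and 31.4% lower. Without 1 Control library the Control count of 5 was 0 or 1, and without 1 Rem2 KO library the Rem2 KO count of 6 was 1 or 2. It was 3 without either Control KCl library.

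Of 6 targets of the aryl hydrocarbon receptor 3 were tested, and 1 rose in each genotype. Called higher with KCl over all tested genes were 5.18% in Control and 5.73% in Rem2 KO. Tiparp, a mono-ADP-ribosyltransferase that restrains that receptor, rose by 1.44 and 1.17, and lost the call without KCl library 1 of the same genotype. The median of the 3 was 0.12 in both. Across the 58 tested genes of these 6 lists, 0 passed in any genotype comparison by limma. At an unadjusted p under 0.05 there were 2 when silenced, 0 when depolarised and 1 for the difference of responses, and with the library number as a block 7, 3 and 2, of which 0 passed after adjustment. Over all 13085 tested genes there were 181, 195 and 67, and with the block 1003, 983 and 451.

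The genes closest in pattern to each of the 3 were found by the root mean square difference of log2(FPKM + 1) over the 8 libraries, after each gene's own mean was subtracted, among 12187 genes. For Npas4 they were Fosb (0.275), Nr4a3 (0.328), Bdnf (0.337), Fos (0.353) and Pcsk1 (0.375). Pcsk1, a prohormone convertase gene, went from 0.783 to 1.35 FPKM when silenced to 51.9 to 67.1 with KCl. The same 5 were found after quantile normalization. For Arnt the nearest were Pi4ka (0.0315), Tnfaip1, Mcmbp, Mapk8ip3 and Poc1b, and for Arnt2 they were Hace1 (0.0267), Thoc1, Ube3c, Dnm1l and Fmn2. Only 1 of 5 in each of these sets, Poc1b and Dnm1l, was found again after quantile normalization, so these sets depend on the scaling.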

How the data were processed

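The deposited table holds FPKM per RefSeq entry and library, computed by the authors, per the file headers. TopHat, Cufflinks and the build mm10 are named in the submitters' processing notes (versions not given in the sources used here). A gene was found for 34011 of 34353 accessions, and unmatched ones (342) carried 0.328% to 0.516% of each library's FPKM. Entries were summed per gene. Where an accession was repeated or a value missing, the gene was dropped (302 genes, Aqp4 among them). Read counts were not used, so fragment numbers are rough.

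A gene was tested if 2 or more libraries reached 1 FPKM (13085 genes). This admits genes that reach that level only with KCl, such as Bdnf, Kcna1 and Adm. Egr4 also passed only through its KCl level. The test was limma 3.58.1 in R 4.3.3 on log2(FPKM + 1), with 1 mean per group, a variance trend and 4 residual degrees of freedom. Adjustment was Benjamini-Hochberg across those genes, at a threshold of 0.05. There were 5 comparisons, of which the 2 KCl and the 2 genotype comparisons share libraries with each other. The fit was also run on simulated data with 200 changed genes and independent noise in each library. That simulation holds no effect of the library number, so it cannot show how the calls behave with such an effect.

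Library numbers pair the libraries: deviations from group means correlated at 0.708 to 0.783 over the 6 pairs of groups. Values with the number as a block are therefore given for the KCl tests of the 3 genes, the Npas4 genotype intervals and the list counts they change. For the genotype differences of Arnt and Arnt2 only whether they passed with the block is given. Alternatives were a pseudocount of 0.1, no filter, quantile and TMM-type scaling, the block with and without quantile normalization, entries tested separately and each library left out. P values measure the spread between these libraries.

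The genes and lists were chosen with earlier results of these data known. From each list up to 4 genes past the threshold with the largest change were named, or the 2 with the smallest p, and for each of the 3 genes its 5 nearest in pattern. Plk2, Mdm2, Syt10, Egr4, the single marker genes and the relatives named beside the 3 genes were chosen after their values were seen. Sequences and start sites come from RefSeq (GRCm38.p6) and GENCODE vM21. Frmpd3 was not analysed here, and 1 further list is not reported here.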

Additional observations from a re-analysis of the deposited data

How the results depend on the processing

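The KCl rise of Npas4 kept its direction and its side of the threshold under all 30 alternative values run, with leave-one-out ranges of 4.03 to 4.77 in Control and 4.56 to 4.94 in Rem2 KO (log2 scale). Its genotype difference ran from -0.56 to 0.18 when silenced and from 0.03 to 0.30 when depolarised, and the difference of responses from -0.015 to 0.72. With 1 library left out, Arnt ran from 0.22 to 0.32 (KCl in Control), 0.12 to 0.50 (KCl in Rem2 KO), -0.15 to 0.23 (genotype, silenced), -0.020 to 0.18 (depolarised) and -0.15 to 0.23 (difference of responses). Arnt2 ran from -0.43 to -0.21, -0.49 to -0.23, -0.15 to 0.12, -0.15 to 0.050 and -0.17 to 0.10. The ratio difference ran from -0.71 to -0.64.

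Arnt passed with quantile normalization (0.46 in Control, 0.47 in Rem2 KO), with TMM-type scaling (0.42, 0.44), with both quantile normalization and the replicate block (0.46, 0.47), and in Rem2 KO with the replicate block (0.31). Arnt2 passed with the replicate block (-0.32, -0.36) and with block and quantile normalization (-0.32, -0.41). The genotype difference of Arnt2 when silenced was 0.022 with quantile normalization, with and without the block. Tested as separate entries, the one with exon 5 was at -0.38 for KCl in Control and -0.85 for genotype when silenced. The one without it was at -0.32 for KCl in Rem2 KO, -0.41 for genotype when depolarised and -2.09 for the difference of responses. The ratio was no longer past the threshold with the higher Arnt entry alone (-0.70) or permuted within replicate block and genotype (-0.67, where the threshold cannot be reached). The causes were not tested.

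Over all genes, 2274 were called for KCl in Control and 2099 in Rem2 KO. The replicate block gave 6365 and 6214, with quantile normalization 6055 and 6030, separate entries 1407 and 1379, and leaving out 1 library 119 to 1912 and 200 to 1423. Of the calls, 29.8% and 35.7% were higher, against 44.1% and 44.7% with quantile normalization and 46.9% and 48.6% with TMM-type scaling, and 30.4% to 68.5% and 37.2% to 63.0% with 1 library left out (in Control 58.3% without silenced library 1, 63.9% and 68.5% without KCl libraries 1 and 2; in Rem2 KO 62.3% without silenced library 2 and 63.0% without KCl library 1). The genotype comparisons had 3, 6 and 1 calls (silenced, depolarised, difference of responses), and 0 to 18 under the alternatives. Of 504 values for 36 list results, 72 lost the call, 6 gained it and 0 changed sign. Rough depth gives the silenced Npas4 values a counting error of 6.80% to 8.06%.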
